A study of Mus musculus with 9 samples.

Results

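The 8 genes described here encode the cell-surface receptors through which mouse or human platelets sense thrombin, extracellular nucleotides and thromboxane: F2r, F2rl2, F2rl3, P2rx1, P2ry1, P2ry12, P2ry14 and Tbxa2r. They were taken by gene symbol, 8 of the 35275 gene identifiers in the count data. Their transcripts were counted by bulk RNA-seq in mouse bone marrow megakaryocyte-erythroid progenitors (MEPs; Lin-ckit+CD34-FcgammaRII/IIIlo), 25000 cells per library, sorted on how strongly they bound HS3A8, a single-chain variable fragment (scFv) against sulfated heparan sulfate. HS3A8-high cells bound more and HS3A8-low cells bound less, and MPB49 cells were mock-sorted with an scFv of no known epitope and stand for total MEPs, with 3 libraries of each. The labels give no treatment or genotype that separates the groups, and name neither the strain nor the age of the mice. The study compared the fractions to find what distinguishes MEPs that differ in this surface glycan.

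In platelets, thrombin cleaves protease-activated receptors, and the new amino terminus then activates the same receptor. In the mouse, F2rl3 (PAR4) is the receptor that signals in platelets and F2rl2 (PAR3) acts as its cofactor, whereas F2r (PAR1) is the main thrombin receptor of human platelets and of many other cells. ADP acts on P2ry1, which couples to Gq and calcium release, and on P2ry12, which couples to Gi and is the target of clopidogrel. P2rx1 is an ATP-gated cation channel, P2ry14 is a receptor for UDP-glucose and Tbxa2r is the receptor for thromboxane A2. Platelets are made by megakaryocytes, and MEPs are the precursors that megakaryocytes share with red cells.

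In brief, of the 8 receptors 7 could be tested between HS3A8-high and HS3A8-low MEPs, and 5 were called lower in HS3A8-high, F2r, P2rx1, F2rl2, Tbxa2r and P2ry14, beside 3.21% of all genes tested. The last 4 had enough counts for the test in HS3A8-low only, and leaving out 1 library left 0 to 4 receptors called. P2rx1 had no count in any HS3A8-high library and 85 to 131 counts in the HS3A8-low libraries. F2rl3 was at a mean of 4.19 against 10.4 CPM (counts scaled to a library of fixed size) and did not pass the test, and P2ry1 was at 30.4 against 33.0 CPM. P2ry12 was at 0 in 8 of the 9 libraries. CPM here are scaled by TMM (trimmed mean of M values) factors over all 9 libraries, and a gene was called where the Benjamini-Hochberg adjusted p of edgeR's quasi-likelihood test was under 0.05.

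Sequence upstream of the receptor genes was read from RefSeq (GRCm38.p6), which had windows for 8 of the 8 genes. It is shown for the 3 thrombin receptors, for P2rx1, which had no count in HS3A8-high MEPs, and for P2ry1, whose fractions overlapped. Each line runs 5′ to 3′ on the strand of the gene, in the window of 250 bases before the RefSeq start, ending at the base before the GENCODE start where that lies further upstream. Capitals mark the letters AGATAA or TTATCT, a core recognised by GATA factors, and AGGAAG or CTTCCT, a core recognised by ETS factors, so that both strands were searched.
F2r: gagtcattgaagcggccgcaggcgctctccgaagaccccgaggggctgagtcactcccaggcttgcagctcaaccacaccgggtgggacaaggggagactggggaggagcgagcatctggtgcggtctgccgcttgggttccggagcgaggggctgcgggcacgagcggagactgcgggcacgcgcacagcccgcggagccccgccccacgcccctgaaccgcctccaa
F2rl2: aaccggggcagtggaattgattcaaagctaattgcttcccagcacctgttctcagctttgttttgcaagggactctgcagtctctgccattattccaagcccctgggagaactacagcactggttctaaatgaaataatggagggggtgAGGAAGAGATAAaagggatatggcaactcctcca
F2rl3: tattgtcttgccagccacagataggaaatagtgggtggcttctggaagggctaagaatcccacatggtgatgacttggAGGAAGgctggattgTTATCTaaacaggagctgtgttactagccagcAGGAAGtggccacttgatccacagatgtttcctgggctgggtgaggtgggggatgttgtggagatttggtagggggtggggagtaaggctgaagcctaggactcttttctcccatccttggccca
P2rx1: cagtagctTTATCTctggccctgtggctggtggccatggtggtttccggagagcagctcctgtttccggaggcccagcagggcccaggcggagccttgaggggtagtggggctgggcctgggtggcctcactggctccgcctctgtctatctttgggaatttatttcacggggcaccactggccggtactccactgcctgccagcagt
P2ry1: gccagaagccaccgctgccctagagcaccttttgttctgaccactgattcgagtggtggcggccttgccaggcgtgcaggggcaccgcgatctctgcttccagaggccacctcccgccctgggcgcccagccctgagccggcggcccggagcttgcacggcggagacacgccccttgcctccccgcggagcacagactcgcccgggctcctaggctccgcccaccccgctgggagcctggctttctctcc
The windows lie at chr13:95618488-95618716 (minus strand) for F2r, chr13:95696670-95696852 (plus) for F2rl2, chr8:72761409-72761658 (plus) for F2rl3, chr11:72998895-72999102 (plus) for P2rx1 and chr3:61002535-61002784 (plus) for P2ry1. In the full windows, F2rl2 held 1 GATA and 1 ETS core directly joined, F2rl3 held 1 and 2, and P2rx1 held 1 GATA core. F2r and P2ry1 held neither, and 70.8% of their bases were G or C against 48.4% for F2rl2. Over all 32851 RefSeq windows of the same length, 9.99% held the GATA core, 29.5% the ETS core and 2.95% both. The joined pair of F2rl2, singled out after it was seen, was in 5 of the 32851 windows. The matches describe these letters only. The remaining genes held 1 ETS core (P2ry12), 0 or 2 ETS cores (2 windows of Tbxa2r), and up to 1 of each (4 windows of P2ry14).

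Library totals ran from 11781637 to 15850037 counts, so that a count of 0 allowed 3 counts, or 0.176 to 0.282 CPM after scaling, counting error only. The replicates of each group are separate samples by their labels, and replicate numbers paired the HS3A8-high and HS3A8-low libraries in their deviations. Replicate 3 of both fractions stood apart by its summed granulocyte and monocyte markers (16 genes), which reached 1988 CPM in the HS3A8-high and 5085 CPM in the HS3A8-low library against 11.1 to 269 CPM in the other 4 sorted libraries. MPB49 replicate 1 had the lowest scaling factor, 0.864, of the 9 libraries. It also stood apart in its counts over all genes. Their chi-square per degree of freedom was 213 against MPB49 replicate 2 and 163 against replicate 3. Between replicates 2 and 3 it was 10.2. Erythroid markers (16 genes) summed to between 10950 and 15156 CPM in every library. Of the genes the gate selects against, Cd34 had 52, 11 and 166 counts in the HS3A8-high libraries, 480, 876 and 877 for HS3A8-low and 163, 663 and 548 for MPB49. Fcgr3, a gene of the FcgammaRII/III gate, had 269 and 522 counts in replicate 3 of HS3A8-high and HS3A8-low against 2 to 32 in the other 7 libraries. Transcripts that go against the gate were thus present, most of all in HS3A8-low, and their part in the receptor values was not tested. Megakaryocyte markers (16 genes) summed to between 82.3 and 121 CPM for HS3A8-high, between 268 and 488 for HS3A8-low and between 208 and 356 for MPB49, with Gp6 at 0 in HS3A8-high.

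F2r, at chr13:95601803-95618487 on the minus strand with 2 exons, was the most abundant of the receptors in each group, also per kilobase of exon. Its counts were 1047, 616 and 565 in HS3A8-high replicates 1 to 3, or 65.7, 46.3 and 37.4 CPM. In HS3A8-low they were 3529, 2103 and 1319, or 206, 148 and 111 CPM. In MPB49 they were 782, 1687 and 1232, or 73.5, 107 and 90.4 CPM. Every HS3A8-low library lay above every other library, and every HS3A8-high library below. F2r was lower in HS3A8-high than in HS3A8-low by a log2 fold change of -1.67 ± 0.29 (SE, n = 3 and 3, adjusted p = 0.0336, edgeR). Within the numbered pairs, HS3A8-low held 3.14, 3.19 and 2.97 times the CPM of HS3A8-high. With the replicate number as a block, the log2 fold change was -1.66 ± 0.076 (adjusted p = 0.00159, edgeR). The test without the block has few libraries to spare. Without HS3A8-low replicate 3 its adjusted p was 0.0318, and without any other library of either fraction it was between 0.0563 and 0.141.

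F2rl3, at chr8:72761880-72763874 on the plus strand in 1 exon, had 75, 28 and 87 counts in HS3A8-high, or 4.71, 2.11 and 5.75 CPM. It had 258, 126 and 86 counts in HS3A8-low, or 15.1, 8.86 and 7.23 CPM, and 91, 118 and 74 in MPB49, or 8.56, 7.52 and 5.43 CPM. The fractions did not overlap, yet the log2 fold change of -1.34 ± 0.45 between HS3A8-high and HS3A8-low did not pass edgeR's test (adjusted p = 0.161). DESeq2 gave an adjusted p of 0.0517. Within pairs, HS3A8-low held 3.21, 4.20 and 1.26 times the CPM of HS3A8-high, the smallest ratio in pair 3. With the replicate number as a block edgeR's adjusted p was 0.0708, and F2rl3 passed under 1 of 17 alternatives.

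F2rl2, at chr13:95696853-95702739 on the plus strand with 2 exons, sat at the counting floor in HS3A8-high, with 5, 0 and 0 counts. HS3A8-low had 229, 104 and 54 counts, or 13.4, 7.31 and 4.54 CPM, and MPB49 had 49, 43 and 49, or 4.61, 2.74 and 3.59 CPM. The lowest HS3A8-low library was thus above 4 CPM while no HS3A8-high library reached 0.5 CPM. F2rl2 fell in HS3A8-high by a log2 fold change of -6.17 ± 1.02 (adjusted p = 0.0303, edgeR), a value that rests on 5 counts in replicate 1. In the only pair with counts on both sides, the ratio was 42.7. The call stood without replicate 3 of HS3A8-high or of HS3A8-low (0.0398 and 0.0404) and not without any other library (0.0593 to 0.140). The gene lies inside Iqgap2 on the opposite strand and shares no exon base with it, and Iqgap2 itself stood at 72.8 ± 5.90 against 88.0 ± 27.1 CPM in the fractions (SD, n = 3, adjusted p = 0.497, edgeR).

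P2ry1, at chr3:61002795-61008982 on the plus strand with 2 exons, was the second most abundant receptor per kilobase in every group, and its groups overlapped. HS3A8-high had 604, 307 and 456 counts, or 37.9, 23.1 and 30.1 CPM. HS3A8-low had 770, 402 and 307 counts, or 45.0, 28.2 and 25.8 CPM, and MPB49 had 377, 439 and 444 counts, or 35.5, 28.0 and 32.6 CPM. The log2 fold change of HS3A8-high over HS3A8-low was -0.15 ± 0.27 (adjusted p = 0.812, edgeR), and its direction turned to 0.02 without HS3A8-high replicate 2 and to 0.16 without HS3A8-low replicate 1. An antisense gene, Gm37035, shares 992 bases, 23.1%, of the P2ry1 exons. It was not a row of the count data, and reads of the pair cannot be told apart without knowing whether counting used strand.

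P2ry12, the other ADP receptor among these genes, lies at chr3:59216272-59262871 on the minus strand with 5 exon blocks. It had 0 counts in all 3 HS3A8-high libraries, all 3 HS3A8-low libraries and MPB49 replicates 2 and 3. MPB49 replicate 1 had 9 counts, 0.846 CPM. The same library was the only one with counts of the nearby Igsf10, 13 of them. P2ry12 was too low for the count filter in any comparison, so the main test left it out. Without the filter, edgeR's adjusted p against MPB49 was 0.707 for HS3A8-high and 0.810 for HS3A8-low, and no difference was detectable at this depth. Between P2ry1 and P2ry12, the reads counted in MEPs were therefore almost wholly those assigned to P2ry1.

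P2ry14, at chr3:59113855-59153618 on the minus strand with 5 exon blocks, was low throughout. HS3A8-high had 17, 4 and 8 counts, or 1.07, 0.301 and 0.529 CPM, close to the counting floor in replicate 2. HS3A8-low had 80, 109 and 31 counts, or 4.68, 7.66 and 2.60 CPM, and MPB49 had 29, 52 and 37, or 2.73, 3.31 and 2.71 CPM. No HS3A8-high library reached the lowest of the other groups. P2ry14 was lower in HS3A8-high by a log2 fold change of -2.97 ± 0.61, just past the threshold (adjusted p = 0.0498, edgeR). The call was lost with a filter at a mean count of 10 (0.0578) and without each of the 6 libraries in turn (0.0519 to 0.183). P2ry14 lies inside Med12l on the opposite strand without a shared exon base. Med12l, at 0.324 ± 0.301 against 5.44 ± 3.87 CPM, differed by -4.04 ± 1.02 on the log2 scale without passing edgeR's test (adjusted p = 0.0826), and Gpr171, another receptor gene in the Med12l region, was called at -3.42 ± 0.67 (adjusted p = 0.0422, edgeR). In HS3A8-high, Med12l had 6, 0 and 9 counts and Gpr171 had 21, 4 and 45. Like P2ry14, both entered the test through HS3A8-low alone, and these differences are descriptions.

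P2rx1, at chr11:72999103-73015200 on the plus strand with 12 exon blocks, had 0 counts in each of the 3 HS3A8-high libraries. HS3A8-low had 131, 117 and 85 counts, or 7.66, 8.22 and 7.14 CPM, the tightest group of any receptor that differed. MPB49 had 19, 68 and 52 counts, or 1.79, 4.33 and 3.81 CPM. Against a floor of 3 counts per library, P2rx1 was at least 37.6-fold higher in HS3A8-low than in HS3A8-high MEPs (adjusted p = 0.00712, edgeR) and at least 16.2-fold higher in MPB49 than in HS3A8-high. The call between fractions stood without each library in turn (0.00675 to 0.0496) except HS3A8-low replicate 2 (0.0873).

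Tbxa2r, at chr10:81328731-81335172 on the plus strand with 4 exon blocks, had 6, 4 and 10 counts in HS3A8-high, or 0.377, 0.301 and 0.661 CPM, near the counting floor. HS3A8-low had 133, 78 and 33 counts, or 7.78, 5.48 and 2.77 CPM, and MPB49 had 42, 36 and 48, or 3.95, 2.29 and 3.52 CPM. HS3A8-high lay below both other groups without overlap. The log2 fold change was -3.58 ± 0.54 (adjusted p = 0.0257, edgeR), and the pairs gave ratios of 20.7, 18.2 and 4.19. The call stood without replicate 3 of HS3A8-high or of HS3A8-low (0.0323 and 0.0213) and was lost without any other library (0.0839 to 0.136).

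**Figure D1:**
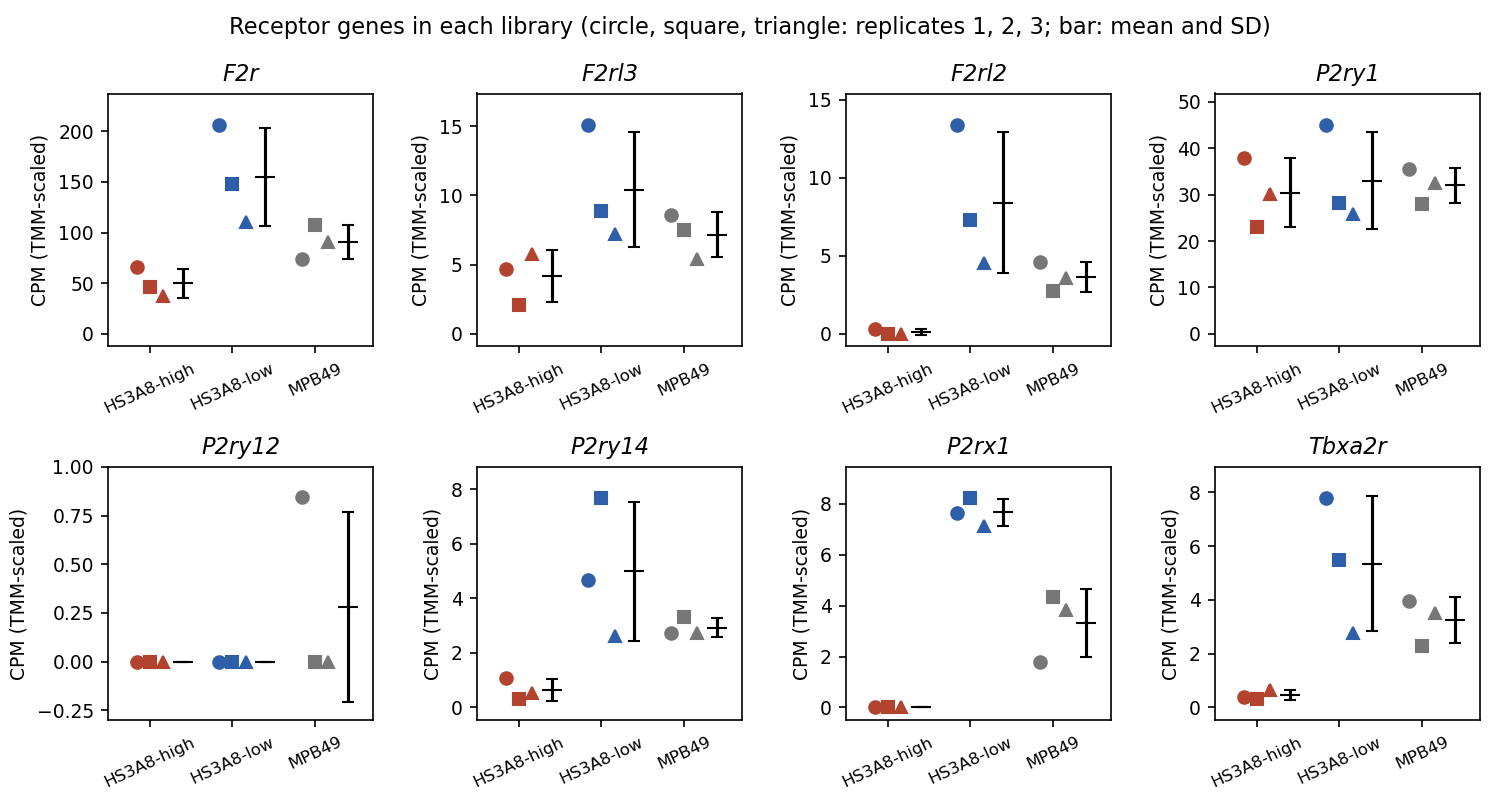
CPM (TMM-scaled over 9 libraries, linear axes that differ between panels) of the 8 receptor genes in each library, with circles, squares and triangles for replicates 1, 2 and 3 and a bar for the mean and SD of each group. P2rx1 is at 0 in HS3A8-high and between 7.14 and 8.22 CPM in HS3A8-low, whereas P2ry1 spans 23.1 to 45.0 CPM over all groups.

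Between HS3A8-high and HS3A8-low, 5 of the 7 receptors tested were called, each lower in HS3A8-high, beside 3.21% of the 11791 genes tested that were called lower. With the replicate number as a block the share of all genes was 8.27%, and with DESeq2 it was 6.67%, with 5 receptors called by each. The groups did not overlap in the direction lower in HS3A8-high for 6 of the 7, beside 14.5% of all genes. The median log2 fold change was -2.97 over the 7 and -0.03 over all genes. Only F2r, which was called, and F2rl3 and P2ry1, which were not, had 10 counts in every HS3A8-high library. The other 4 entered the test through HS3A8-low alone, a route that favours a difference in this direction without fixing a call. Their count, their lack of overlap and the median over the 7 are not support for a difference. Leaving out replicate 3 of both fractions, the pair with the granulocyte and monocyte markers, an alternative added after seeing the data, left 5 called (adjusted p 0.00499 to 0.0396, edgeR). Leaving out replicate 1 or replicate 2 of both fractions left 0 called and 0 genes called of all tested.

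Other lineages moved with the receptors. Summed megakaryocyte markers, stem and progenitor markers (12 genes, 61.6 to 79.9 against 326 to 332 CPM) and lymphoid markers (15 genes, 9.48 to 58.5 and 187 to 208 CPM) were each lower in all HS3A8-high libraries, and erythroid markers were higher (14381 to 15156 against 10950 to 12275 CPM). Basophil and mast cell markers (10 genes) came to 1.63, 2.48 and 80.9 CPM against 23.05 to 167 CPM. By edgeR's test, 5 of 13 megakaryocyte, 4 of 11 stem and progenitor and 2 of 11 lymphoid markers tested were called lower, beside 3.21% of all genes, 1 of 16 erythroid markers was called higher, and 0 of 13 granulocyte and monocyte and 0 of 4 basophil and mast cell markers were called (0 and 3 at an unadjusted p under 0.05). With the replicate block these counts were 8, 8 and 5 lower, 5 higher, and 8 and 1 lower, beside 8.27% of all genes called lower. Their part in the receptor values was not tested. In bulk libraries, fewer cells expressing a receptor and less of its RNA per cell cannot be told apart.

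**Figure D2:**
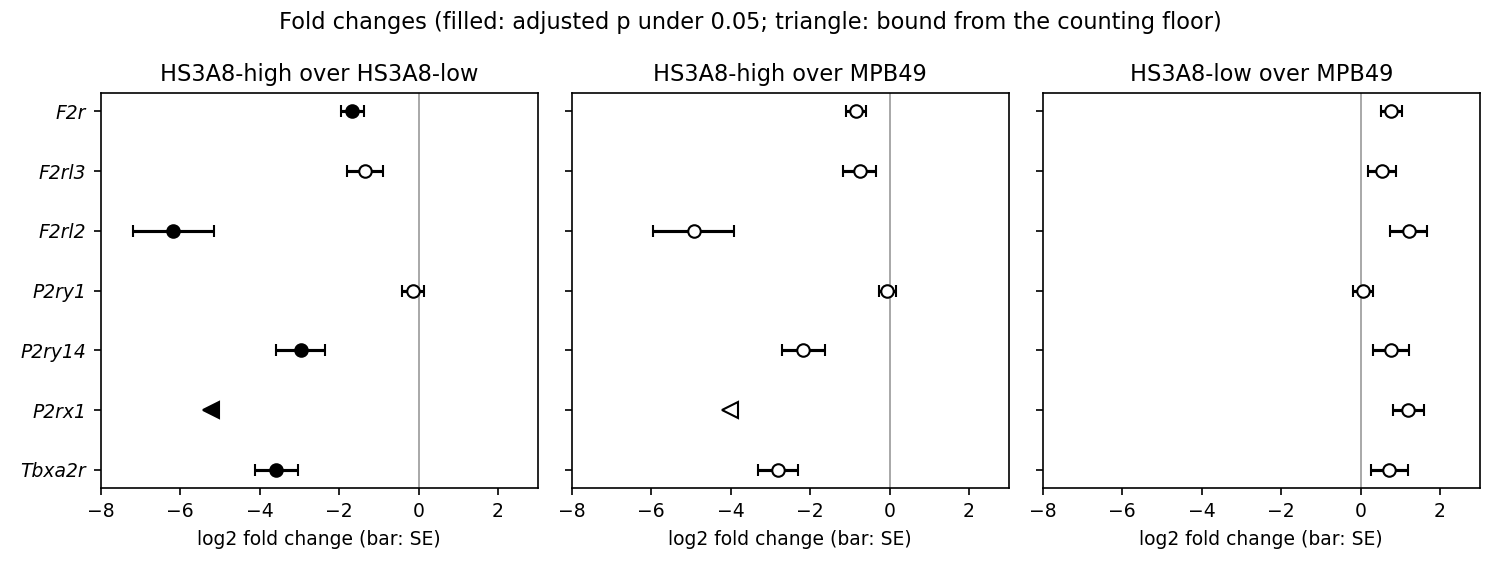
Log2 fold changes of the 7 tested receptors in the 3 comparisons, with bars for the SE and filled points for an adjusted p under 0.05. The triangles for P2rx1 are bounds from the counting floor, 5.23 and 4.02 on the log2 scale below the other group, since its HS3A8-high libraries were at 0, and P2ry1 sits next to 0 in every panel.

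Set against the MPB49 control, HS3A8-high MEPs had lower means of all 7 receptors, but edgeR called 0 of the 7 (0.0174% of 11486 genes were called lower). An unadjusted p under 0.05 was found for 5 of them, and for 562 genes in all. Log2 fold changes were -4.93 ± 1.02 for F2rl2 (adjusted p = 0.360), -2.82 ± 0.51 for Tbxa2r (0.246), -2.17 ± 0.54 for P2ry14 (0.517), -0.85 ± 0.25 for F2r (0.668), -0.75 ± 0.42 for F2rl3 (0.733) and -0.06 ± 0.21 for P2ry1 (0.912). P2rx1, at 0 against 19 to 68 counts, had an adjusted p of 0.197. MPB49 replicate 1, which stood apart from the other MPB49 libraries, widens the spread of this control group. Without it, edgeR still called 0 receptors against either fraction. DESeq2 called 3 of the 7 lower, beside 0.986% of all genes: P2rx1 (adjusted p = 4.4e-06), F2rl2 (0.000146) and Tbxa2r (0.00217). HS3A8-high lay below MPB49 without overlap for 5 of the 7, beside 7.49% of genes. P2rx1, F2rl2, Tbxa2r and P2ry14, 4 of these 5 and including the 3 that DESeq2 called, met the count filter through MPB49 alone, so that these counts are no support for a difference.

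HS3A8-low MEPs had higher means than the MPB49 control for all 7 receptors, and edgeR again called 0 of them, as it did 0% of the 11878 genes tested. An unadjusted p under 0.05 was found for 3 receptors and 673 genes, and DESeq2 called 0 receptors higher, beside 0.657% of genes. Log2 fold changes were 1.21 ± 0.46 for F2rl2 (adjusted p = 0.806), 1.20 ± 0.39 for P2rx1 (0.728), 0.78 ± 0.26 for F2r (0.760), 0.77 ± 0.46 for P2ry14 (0.840), 0.72 ± 0.47 for Tbxa2r (0.840), 0.54 ± 0.36 for F2rl3 (0.840) and 0.05 ± 0.25 for P2ry1 (0.973). P2rx1 and F2r were the 2 receptors without overlap, beside 7.85% of genes. The 3 comparisons share their libraries. The study split MEPs by HS3A8 binding into an upper and a lower part of equal size, and MPB49 stands for the total. A total between its parts is what such a split gives, so the position of MPB49 is a description. Its mean lay between those of the fractions for 7 of the 8 receptors. For P2rx1 it was 3.31 ± 1.35 CPM where the mean of both fractions was 3.84 CPM. For F2rl2 these values were 3.65 ± 0.935 and 4.26 CPM, and for Tbxa2r 3.26 ± 0.859 and 2.90 CPM.

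P2ry1 held a larger share of the receptor transcripts in each HS3A8-high library than in any other library. The CPM of P2ry1 itself overlapped between the groups, so its share restates the lower summed level of the other receptors and is no separate result. Per kilobase of exon, the 8 genes reached a sum of 20.5 to 31.3 CPM for HS3A8-high, 49.1 to 92.7 for HS3A8-low and 39.8 to 46.8 for MPB49, and F2r, P2ry1 and F2rl3 were the most abundant in that order in each group. F2r made up 60.9 ± 8.01% of this sum for HS3A8-high, 67.6 ± 0.747% for HS3A8-low and 62.8 ± 6.81% for MPB49 (SD, n = 3), with overlap. P2ry1 took 29.0 ± 3.30%, 11.2 ± 1.06% and 17.6 ± 3.43%, without overlap between any of the groups. P2rx1 took 0% in HS3A8-high and 4.51 ± 1.23% in HS3A8-low. The F2r to P2ry1 count ratio, which needs no scaling between libraries, came to 1.73, 2.01 and 1.24 for HS3A8-high, 4.58, 5.23 and 4.30 for HS3A8-low and 2.07, 3.84 and 2.78 for MPB49. Between the fractions it had a two-sided exact permutation p of 0.1, the smallest that 3 against 3 libraries allow. The F2r to F2rl3 ratio, the only other one tested, overlapped between them (14.2 ± 7.76 and 15.2 ± 1.51, exact permutation p = 0.8).

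**Figure D3:**
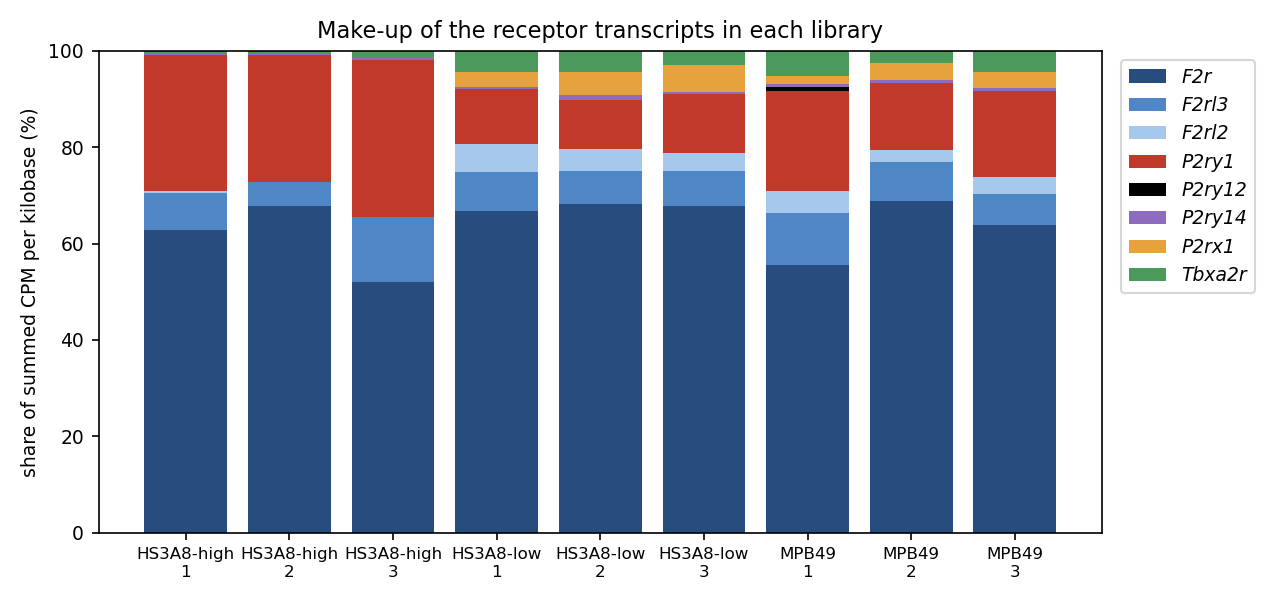
Stacked bars of each receptor's share (%) of the summed CPM per kilobase of exon of the 8 genes, 1 bar per library. P2ry1 takes 26.2 to 32.7% in HS3A8-high and 10.1 to 12.2% in HS3A8-low, and P2rx1 and F2rl2 are almost absent from the HS3A8-high bars.

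Across the 9 libraries, which share their groups and the sort, the log2 CPM of P2ry1 correlated with those of the other tested receptors at Pearson's r of 0.14 to 0.62, and the other receptors with each other at 0.74 to 0.96. Each receptor was also set against about 9328 genes whose mean reached 5 CPM, and the genes most like it over the 9 libraries are named as a description, 3 for each receptor other than P2ry14. F2rl2 ran closest to Itga2b, the platelet integrin alphaIIb chain (r = 0.994), Tek (0.991) and Fgf3 (0.984), and Tbxa2r to Pear1, a platelet surface receptor (0.980), Slc18a2 (0.979) and Tuba8 (0.971). P2rx1 ran closest to Mfge8 (0.987), Ifitm1 (0.986) and Mycn (0.982), P2ry14 to Eya2 (0.983) and Inpp1 (0.968), and F2r to Adgrg1 (0.984), Tsc22d1 (0.971) and Muc13 (0.970). F2rl3 was nearest to Lck (0.977), Abcg1 (0.954) and Gata3 (0.948), and P2ry1 to 0610030E20Rik (0.966), Igtp (0.960) and Amer1 (0.945).

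The related receptors, G proteins, effectors and agonist enzymes that work with these receptors were taken as 94 genes in 4 lists. Of the 70 tested, edgeR called 4 lower in HS3A8-high and 0 higher, beside 3.21% of all genes called lower. With the replicate block it called 20 lower and 0 higher, beside 8.27% of all genes. The median log2 fold change of the 70 was -0.47, against -0.03 for all genes.

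Among 25 related receptors, 10 were tested and 1 was called, S1pr1, a receptor for sphingosine-1-phosphate, at 2.26 ± 0.612 CPM in HS3A8-high against 16.8 ± 4.81 CPM in HS3A8-low (-2.91 ± 0.34 on the log2 scale, adjusted p = 0.0134, edgeR). The block added P2rx4 and Adora2a. S1pr4 (27.2 ± 2.09 against 37.0 ± 7.77 CPM), P2rx4, another ATP-gated channel (21.5 ± 1.13 against 31.1 ± 0.900), and Ptger4, a prostaglandin E2 receptor (27.4 ± 3.58 against 22.6 ± 2.65), had the highest means and did not pass without the block (adjusted p 0.213, 0.0603 and 0.465, edgeR). With the block, P2rx4 was called and S1pr4 and Ptger4 were not.

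Of 15 G protein genes, 13 were tested and 1 was called, the gamma subunit Gng11 at 0.455 ± 0.329 against 4.07 ± 0.531 CPM (-3.14 ± 0.64, adjusted p = 0.0473, edgeR). The block added Gnaz, the alpha subunit Gz (-2.48 ± 0.67 without the block). The abundant Gnai2, which couples to P2ry12, was at 415 ± 41.0 and 473 ± 27.7 CPM (adjusted p = 0.253, edgeR), and the beta subunits Gnb1 and Gnb2 had log2 fold changes of -0.03 ± 0.08 and 0.05 ± 0.07.

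Of 38 effectors downstream of the receptors, 37 were tested and 1 was called, a share near the 3.21% of all genes, the protein kinase C gene Prkca, at 1.62 ± 0.452 against 7.05 ± 1.56 CPM (-2.14 ± 0.34, adjusted p = 0.0279, edgeR). With the replicate block 12 were called, all lower, beside 8.27% of all genes. Among them, picked after their values were seen, were the phospholipase gene Plcb2 (adjusted p 0.0567 without and 0.0303 with the block), the Rap1 activator Rasgrp2 (0.145 and 0.0223), the Rap1 inhibitor Rasa3 (0.0555 and 0.00857) and the arrestin Arrb2 (0.0590 and 0.0184). Rhoa, Prkar2b and Arhgef1, the most abundant of the list, had log2 fold changes of -0.07 ± 0.07, -0.05 ± 0.10 and -0.07 ± 0.08.

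Of 16 genes that supply or remove the agonists, 10 were tested and 1 was called, Nt5e (CD73), which makes adenosine from AMP, at 0 counts in each HS3A8-high library and 31, 21 and 18 in HS3A8-low (adjusted p = 0.0257, edgeR). Nt5e, Gng11 (10, 1 and 10 counts in HS3A8-high), Gnaz (16, 5 and 8), Adora2a (5, 0 and 0) and Tbxas1 (10, 2 and 42) lacked 10 counts in some HS3A8-high library. Like 4 of the receptors, they entered the test through HS3A8-low alone, and their calls, with or without the block, are descriptions. The block called 3, adding Panx1, a channel for ATP release, and Tbxas1, thromboxane synthase, which stood at 1.18 ± 1.40 against 17.3 ± 1.85 CPM (-3.88 ± 0.81, adjusted p 0.0520 without and 0.0155 with the block). Pla2g4a, Ugp2 and Panx1 had the highest means (33.8 ± 2.28 against 36.02 ± 9.59, 17.7 ± 2.66 against 24.0 ± 0.521 and 7.75 ± 0.969 against 13.98 ± 0.934 CPM). Against MPB49, edgeR called 0 of the 66 signalling genes tested for HS3A8-high and 0 of the 71 tested for HS3A8-low (8 and 11 at an unadjusted p under 0.05).

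**Figure D4:**
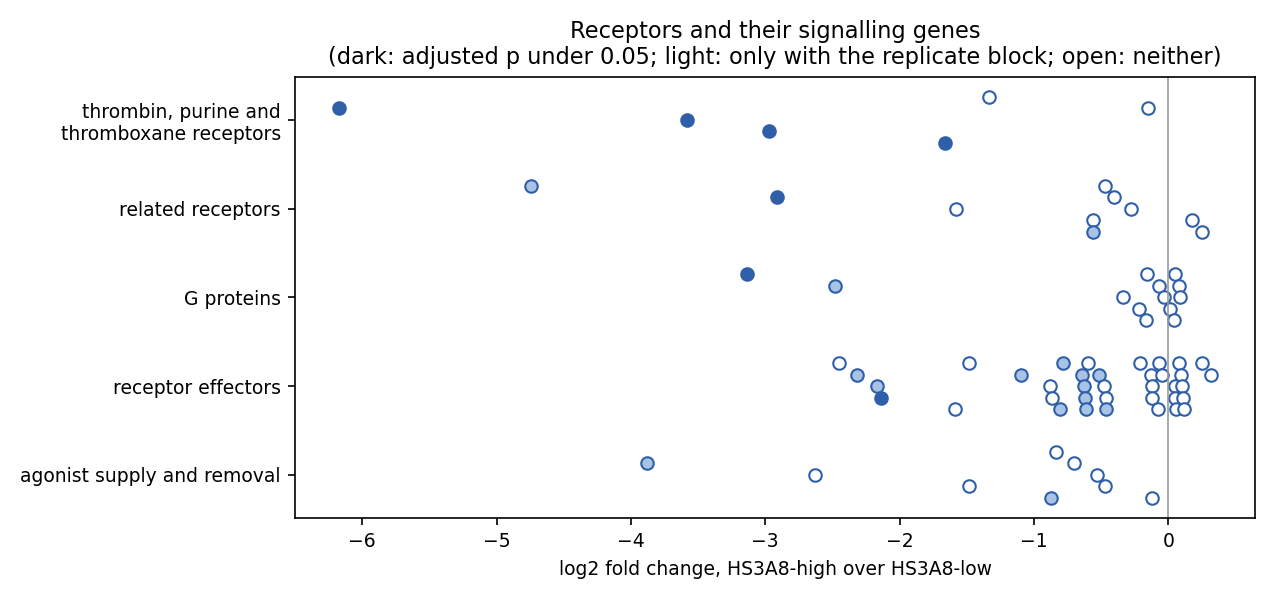
Log2 fold change of HS3A8-high over HS3A8-low for the receptors and the 4 signalling lists, 1 point per tested gene, dark where edgeR's adjusted p was under 0.05, light where it was so only with the replicate block. P2rx1 and Nt5e are not drawn because their HS3A8-high libraries were at 0, and most signalling genes lie between -1 and 0.5.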

How the data were processed

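Bulk RNA-seq counts of 9 libraries were analysed, 3 each of HS3A8-high, HS3A8-low and mock-sorted MPB49 MEPs. The authors sequenced low-input libraries on an Illumina HiSeq, and the submitters' processing notes name STAR 2.5, HTSeq 0.6.1 and mm10. The deposited values are unnormalized counts of reads for each gene. The annotation release and strand setting are not given in the sources used here, and reads of overlapping genes on opposite strands may therefore be mixed. Of the 35275 identifiers, 34490 matched a symbol in GENCODE M21 (GRCm38), whose exons gave lengths. Upstream windows came from RefSeq (GRCm38.p6).

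Counts were tested in R 4.3.3 with the quasi-likelihood test of edgeR 4.0.16 (TMM, filterByExpr, Benjamini-Hochberg adjustment over all genes tested, threshold 0.05 on the adjusted p), each fit holding the libraries of 2 groups. SE are the log2 fold change divided by the root of the F statistic. DESeq2 1.42.0, DESeq2 size factors, other filters, all 9 libraries in 1 fit, a prior count of 0.5 in place of 0.125, a replicate block and the omission of each library were alternatives. The scripts were tested on simulated data. The members and lists were chosen with earlier results of these data known. All 8 receptors are named, of each signalling list every gene called and, if fewer than 3, the 3 with the highest mean CPM, and for likeness the 3 genes with the highest Pearson's r of log2 CPM (prior count 2), of which 1 is not reported here.

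How far each library lay from its group mean, gene by gene, correlated within numbered pairs of the sorted fractions (r = 0.517, 0.345 and 0.514, against -0.483 to 0.114 for different numbers), so these numbers pair the libraries, although the labels do not say that they share a mouse. Numbers did not pair either fraction with MPB49 (-0.362 to 0.0187). The study's legend for the RNA-seq of HS3A8-high and HS3A8-low MEPs gives individual mice as the replicates. By that legend, p-values between these fractions measure the spread between animals. The labels do not say so, and the legend does not name MPB49. The spread between the MPB49 samples may therefore be technical.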

Additional observations from a re-analysis of the deposited data

How the results depend on the processing

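Of the log2 fold changes of the 7 tested receptors under the alternatives, 299 kept direction and side of the threshold, 31 lost their call, 5 gained a call and 8 turned direction. All 8 turns were of P2ry1: with 1 library left out it ran from -0.34 to 0.16 between the fractions, from -0.24 to 0.0904 for HS3A8-high over MPB49 and from -0.24 to 0.21 for HS3A8-low over MPB49, and it was 0.00297 for the former without replicate 2 of both groups and -0.156 for the latter without replicate 1 of both. With 1 library left out, the number of receptors called between the fractions ran from 0 to 4 (5 with all libraries), of genes from 0 to 439 (451 with all) and of signalling genes from 0 to 9 (4 with all), and the number of genes called for HS3A8-high over MPB49 from 0 to 5 (2 with all); fits with fewer libraries also have less power. Without replicate 1 or 2 of both fractions 0 of each were called, and without replicate 3 of both 5 receptors, 748 genes and 11 signalling genes. Between the fractions, the DESeq2 test called 1224 genes and 16 signalling genes, and no count filter called 7 signalling genes. The replicate block called 1367 genes and 20 signalling genes, and without replicate 3, added after seeing the data, 3569 and 34; it changed no receptor's call with all replicates. For HS3A8-high over MPB49, DESeq2 called 140 genes and 3 receptors, all 9 libraries in 1 fit 32 genes and 1 receptor, no count filter 9 genes and the replicate block 0. For HS3A8-low over MPB49, DESeq2 called 93 genes. The cause of these differences was not tested. P2ry12, and any change in P2rx1, F2rl2, Tbxa2r or P2ry14 among HS3A8-high libraries, lay at or near the counting floor.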
